A study of Mus musculus with 15 samples.

Results

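Histone genes were followed in mouse LSK cells, the sorted fraction of bone marrow progenitors that lacks lineage markers and carries Sca-1 and Kit, and that holds the hematopoietic stem cells. The members are genes whose symbol is that of a replication-dependent histone gene (H1f followed by a digit, H2ac, H2bc, H3c or H4c). Each needed a probe set naming no other gene, and the brightest was used where a gene had several. These conditions gave 29 genes of the 22180 with values. Of the 29, 21 lie on chromosome 13 and 5 on chromosome 3, where the histone genes are clustered. The other 3 lie outside the clusters (H1f7 on chromosome 15, H1f8 and H1f10 on chromosome 6) and entered by name only. H1f10 encodes a linker histone that is made outside S phase as well, and H1f7 and H1f8 are germ cell linker histones. By class the members are 8 H1, 6 H2A, 8 H2B and 7 H4 genes. No H3 gene had a probe set of its own.

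Each of 3 groups held 5 arrays. The first was LSK cells cultured for 18 h with extracellular vesicles (EV) released by AFT cells, a stromal line. The second was LSK cells cultured for 18 h without EV, and the last was LSK cells non cultured, taken after sorting. The labels call the cell type HSPC and name Myelocult M5300 as the culture medium. They name neither mouse strain, age nor sex, and say nothing of pooled animals. The series' own text calls the 5 samples of a condition biological replicates.

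Replication-dependent histone genes supply the core histones H2A, H2B, H3 and H4 and the linker histone H1 that package newly copied DNA. Their transcription depends on NPAT, a substrate of cyclin E and CDK2, and peaks in S phase. Their mRNAs have no introns and end in a stem-loop, bound by SLBP, in place of a poly(A) tail, and they are degraded when DNA synthesis stops. A few histone genes also make polyadenylated mRNA, chiefly in cells that have left the cell cycle.

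Median log2 signal lay between 4.62 and 4.74 on the 15 arrays, with the array with EV of replicate 1 at the top, and no pair of arrays held identical values. The sorting marker Kit had a mean of 9.88 with EV and 10.01 without EV, and of 9.62 in non-cultured cells. Means of the T cell genes Cd3e, Cd3d and Cd3g and the B cell genes Cd79a and Ms4a1 ranged from 2.85 to 4.03 over the 3 groups. Two-sided limma tests were run over all 22180 genes, and a gene was called where its Benjamini-Hochberg adjusted p was under 0.05. Errors of log2 differences below are moderated standard errors (SE), with 5 arrays a group. Their number limits the precision: the median SE over the histone genes was 0.20, against 0.13 over all genes.

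Some histone genes, among them H1f5 and H2ac15 with falls of over 4-fold, were lower after culture with or without EV. Of the 29 genes, 9 (31.0%) fell without EV against non-cultured cells, where 6.88% of all genes were called lower, and 0 rose, where 6.75% of all genes were called higher. In culture with EV against non-cultured cells 9 fell and 0 rose, against 7.85% and 6.28% of all genes. The median log2 difference of the 29 from non-cultured cells was -0.14 with EV and -0.13 without EV, while that of all genes was 0.037 with EV and 0.010 without EV. Over the 16 members left without the dimmest 40% of genes these medians were -0.79 with EV and -1.0007 without EV. That filter used the mean of all 15 arrays, so genes lower in culture could pass it through the non-cultured arrays. The larger medians may be partly set by the filter and are no further evidence of a fall. With 1 array left out, the median of the 29 ranged from -0.26 to -0.12 with EV and from -0.34 to -0.10 without EV. Both comparisons use the same non-cultured arrays. In these bulk samples fewer cells making a transcript and less of it per cell cannot be told apart.

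The genes that fell were found among H1, H2A, H2B and H4. Without EV they were 3 of 8 H1, 2 of 6 H2A, 3 of 8 H2B and 1 of 7 H4 genes, and with EV 3 H1, 3 H2A, 2 H2B and 1 H4. Their location was not restricted to a cluster, with 7 of 21 on chromosome 13, 1 of 5 on chromosome 3 and H1f10 called without EV, and 6 on chromosome 13, 2 on chromosome 3 and H1f10 called with EV. Members with a mean signal above the median of all genes (4.88 on the log2 scale) held most of the calls, 7 of 13 in each comparison. Of the 16 dimmer members, 2 were called in each. The mean behind this split included the non-cultured arrays, so genes lower in culture could count as bright through them. H1f1, with means of 4.04 with EV and 4.82 without EV, passed only through its non-cultured mean of 6.07. The share of all genes called on each side was not counted. The split therefore cannot show whether calls depended on signal. Of the 29, 11 had a mean under 4 in every group. Without a measure of background it cannot be said whether such dim genes were detected.

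**Figure D1:**
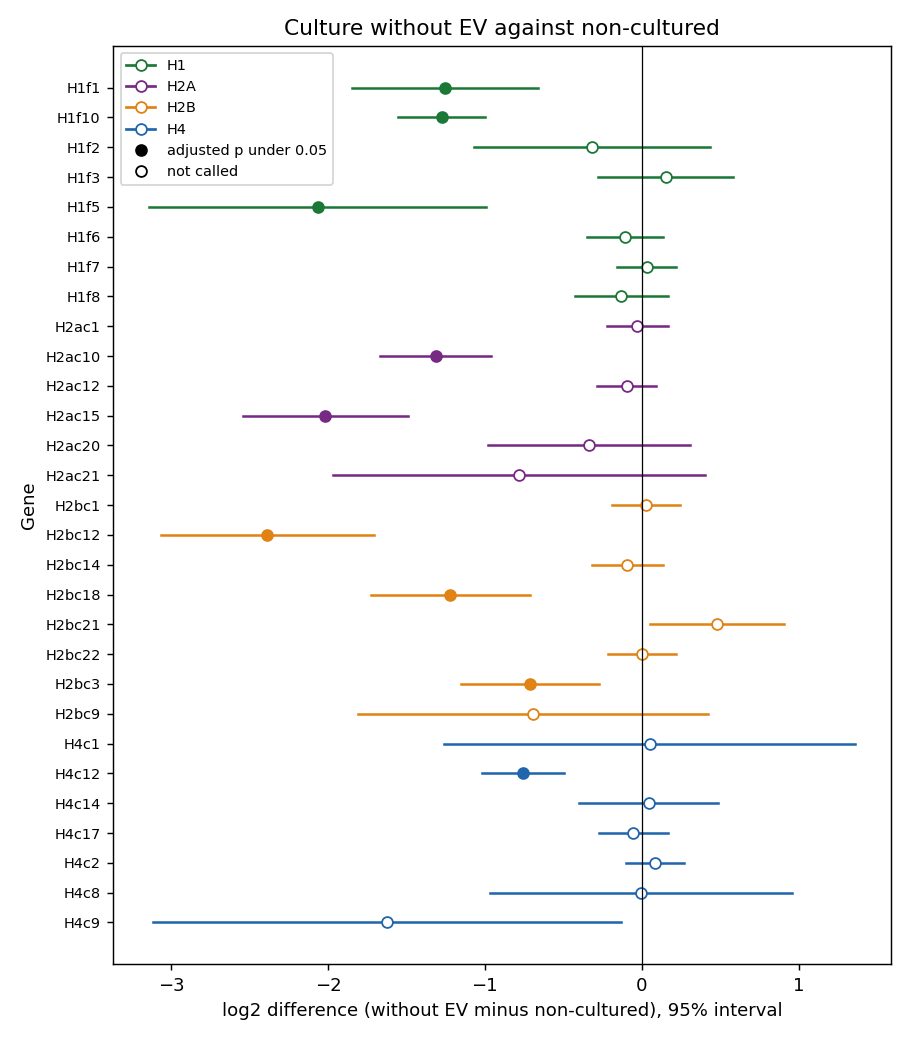
Log2 difference of each of the 29 histone genes, without EV minus non-cultured, coloured by histone class, with its 95% interval (limma, 5 arrays a group). Filled points passed an adjusted p under 0.05. The 9 filled points lie between -2.39 and -0.71, and no gene to the right of 0 is filled.

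The 150 bases before the annotated start are shown for the 9 genes called lower without EV, which that call alone selected. They are RefSeq sequences of GRCm38.p6, read on the strand of the gene, at H1f5 chr13:21780626-21780775 on the minus strand, H1f1 chr13:23763518-23763667 on the plus strand, H1f10 chr6:87981483-87981632 on the minus strand, H2ac15 chr13:21753913-21754062 on the minus strand, H2ac10 chr13:23533725-23533874 on the plus strand, H2bc12 chr13:22035671-22035820 on the plus strand, H2bc18 chr3:96269550-96269699 on the plus strand, H2bc3 chr13:23746584-23746733 on the plus strand and H4c12 chr13:21750554-21750703 on the minus strand. Capitals mark matches on either strand to the TATA box TATAAA, the CCAAT box CCAAT, the octamer ATTTGCAT bound by Oct-1, and the H1 box AAACACA.
H1f5: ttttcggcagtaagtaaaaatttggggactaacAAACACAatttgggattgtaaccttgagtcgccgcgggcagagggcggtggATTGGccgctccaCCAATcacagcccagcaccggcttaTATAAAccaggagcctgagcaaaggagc
H1f1: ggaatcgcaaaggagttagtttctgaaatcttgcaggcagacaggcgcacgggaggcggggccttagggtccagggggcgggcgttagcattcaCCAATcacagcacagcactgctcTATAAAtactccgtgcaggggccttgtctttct
H1f10: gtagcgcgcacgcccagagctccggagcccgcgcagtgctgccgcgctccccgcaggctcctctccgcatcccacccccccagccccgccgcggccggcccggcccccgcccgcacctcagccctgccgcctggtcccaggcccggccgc
H2ac15: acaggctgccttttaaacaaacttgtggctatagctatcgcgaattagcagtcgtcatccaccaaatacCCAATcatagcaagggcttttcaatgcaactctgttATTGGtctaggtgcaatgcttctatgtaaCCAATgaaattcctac
H2ac10: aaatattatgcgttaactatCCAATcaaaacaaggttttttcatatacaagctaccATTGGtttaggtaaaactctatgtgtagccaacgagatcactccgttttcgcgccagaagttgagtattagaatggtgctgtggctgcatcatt
H2bc12: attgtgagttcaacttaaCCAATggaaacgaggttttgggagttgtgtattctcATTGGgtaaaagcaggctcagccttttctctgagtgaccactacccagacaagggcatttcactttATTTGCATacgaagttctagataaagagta
H2bc18: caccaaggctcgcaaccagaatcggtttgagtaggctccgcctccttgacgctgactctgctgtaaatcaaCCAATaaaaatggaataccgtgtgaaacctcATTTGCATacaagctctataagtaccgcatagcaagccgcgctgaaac
H2bc3: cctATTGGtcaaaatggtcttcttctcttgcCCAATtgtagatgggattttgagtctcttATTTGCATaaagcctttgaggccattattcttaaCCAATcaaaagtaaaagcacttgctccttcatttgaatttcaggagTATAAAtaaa
H4c12: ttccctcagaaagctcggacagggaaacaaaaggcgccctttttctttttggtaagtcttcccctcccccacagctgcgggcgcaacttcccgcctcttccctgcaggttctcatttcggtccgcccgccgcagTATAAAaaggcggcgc

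A TATA box stood 33 bases before the start of H1f1, 28 before that of H1f5, 16 before that of H4c12 and 10 before that of H2bc3. Among the 27 members with a promoter in RefSeq, 11 held the letters of the TATA box at any position and on either strand, against 7.57% of 32851 mouse promoters over the same 150 bases. Windows of divergent neighbours can overlap, so the same letters may be counted for both genes. The CCAAT box was found in 20 of 27, against 24.5% of all promoters, and in all 7 H2B and all 6 H2A promoters but in 1 of 6 H4 promoters. The octamer, known as an H2B promoter element, was found in 5 of 27, against 1.0% of all. It was present in 4 of 7 H2B promoters, including those of H2bc12, H2bc18 and H2bc3. The H1 box was found in 4 of 8 H1 promoters and in 2 of 7 H2B promoters, against 3.53% of all, and H1f5 alone of the 9 genes held it. None of the 4 motifs was in the H1f10 window. The motifs overlap in none of the 9 sequences, and a match here is a description of the letters. The promoters of H2bc21 and H4c14 were not used here.

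Linker histones bind the DNA between nucleosomes and compact it. H1f5 (older name Hist1h1b), a cluster gene of the main somatic set, gave 9.22, 8.48, 7.14, 6.92 and 6.46 on the arrays with EV, 8.53, 8.85, 8.35, 6.26 and 7.47 without EV, and 9.80, 10.05, 9.68, 10.12 and 10.14 in non-cultured cells. All 10 cultured arrays were below all 5 non-cultured ones, and the cultured arrays were spread far more widely, with an SD of 1.16 with EV and 1.05 without EV against 0.20 in non-cultured cells. H1f5 was 4.19-fold lower without EV than in non-cultured cells (log2 -2.07, SE 0.51, limma adjusted p = 0.0111) and 4.97-fold lower with EV (log2 -2.31, adjusted p = 0.00517). Without non-cultured replicates 4 and 5 the call without EV was lost (log2 -1.95, adjusted p = 0.0598).

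H1f1 (Hist1h1a) gave 3.97, 4.6, 3.82, 3.79 and 4.01 with EV, 4.86, 4.97, 5.89, 4.27 and 4.09 without EV, and 6.08, 6.34, 5.53, 6.39 and 6.02 in non-cultured cells. The arrays with EV lay wholly below the non-cultured ones, whereas replicate 3 without EV overlapped them. It fell 4.10-fold with EV against non-cultured cells (log2 -2.03, SE 0.28, adjusted p = 0.000102) and 2.39-fold without EV (log2 -1.25, adjusted p = 0.00573).

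H1f10, the linker histone outside the clusters, gave 5.04, 4.86, 4.84, 5.04 and 4.79 with EV and 5.05, 4.49, 4.68, 4.72 and 4.35 without EV. Its non-cultured arrays gave 6.22, 5.90, 5.66, 6.07 and 5.80, all above both cultured groups. The differences were log2 -1.02 with EV (SE 0.13, adjusted p = 5.08e-05) and -1.28 without EV (adjusted p = 5.59e-06). A dimmer probe set that names H1f10 together with Gm5577 did not show this fall. It differed by log2 -0.11 with EV (limma adjusted p = 0.540 over all probe sets) and 0.0004 without EV (adjusted p = 0.999). Of the remaining H1 genes, H1f2, H1f3, H1f6, H1f7 and H1f8 were not called, with log2 differences from non-cultured cells between -0.71 and 0.44.

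H2A and H2B form the dimers that flank the H3 and H4 core of a nucleosome. H2ac15 (Hist1h2ak) gave 6.81, 7.76, 7.22, 7.5 and 6.39 with EV, 8.07, 7.69, 7.52, 6.93 and 6.91 without EV, and 9.24, 9.34, 9.60, 9.53 and 9.49 in non-cultured cells. No cultured array reached the lowest non-cultured one. The gene was 4.94-fold lower with EV (log2 -2.30, SE 0.25, adjusted p = 9.26e-06) and 4.05-fold lower without EV (log2 -2.02, adjusted p = 3.45e-05).

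H2ac10 (Hist1h2af) gave 7.36, 8.28, 7.48, 7.79 and 7.94 with EV, 8.22, 7.60, 8.27, 7.68 and 7.76 without EV, and 9.24, 9.20, 9.30, 9.12 and 9.22 in non-cultured cells. Here too the cultured arrays did not overlap the non-cultured ones. The fall was 2.73-fold with EV (log2 -1.45, SE 0.17, adjusted p = 1.79e-05) and 2.48-fold without EV (log2 -1.31, adjusted p = 4.73e-05). A probe set that names H2ac10, H2ac15 and further H2A genes fell less, by log2 -0.885 with EV and -0.78 without EV.

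H2ac21 (Hist2h2ab, chromosome 3), described after its values were seen, was called with EV only. It gave 5.17, 5.51, 5.77, 5.00 and 8.04 with EV, 8.54, 6.76, 7.12, 7.08 and 5.53 without EV, and 8.69, 7.52, 7.87, 7.13 and 7.74 in non-cultured cells. With EV, 4 of 5 arrays lay below every non-cultured array and replicate 5 lay among them. The differences were log2 -1.89 with EV (SE 0.56, adjusted p = 0.0318) and -0.78 without EV (adjusted p = 0.469), and that of EV against without EV was -1.11 (adjusted p = 0.747). On its dimmer probe set the difference with EV against non-cultured cells was -0.46 (adjusted p = 0.281 over all probe sets). The call with EV was lost in 7 of 15 fits that left out 1 array (adjusted p between 0.0539 and 0.0859), with the replicate number as a block (0.0535) and in the fit over all probe sets (0.0604).

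H2bc12 (Hist1h2bk) gave 3.85, 3.93, 3.76, 4.0 and 4.0 with EV, 3.72, 3.54, 3.68, 3.75 and 5.14 without EV, and 6.44, 7.06, 6.85, 6.20 and 5.22 in non-cultured cells. Every cultured array was below every non-cultured one, though replicate 5 without EV came close to the lowest of them. The gene was 5.45-fold lower with EV (log2 -2.44, SE 0.32, adjusted p = 6.23e-05) and 5.23-fold lower without EV (log2 -2.39, adjusted p = 7.91e-05). Its means of 3.91 with EV and 3.97 without EV are among the dim signals whose detection cannot be judged here, so these folds are ratios of signals that may hold background. Probe sets that name H2bc12 with further H2B genes differed less. The one led by H2bc6 fell by log2 -1.07 with EV and -1.03 without EV. Another differed by -0.44 with EV and -0.36 without EV and was not called (limma adjusted p = 0.0776 and 0.169 over all probe sets).

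H2bc18 (Hist2h2bb, chromosome 3) gave 4.75, 4.13, 4.54, 5.32 and 4.14 with EV, 4.06, 4.02, 4.11, 4.72 and 4.20 without EV, and 5.27, 4.87, 5.72, 5.33 and 6.03 in non-cultured cells. The arrays without EV did not overlap the non-cultured ones, and replicate 4 with EV did. The differences were log2 -0.87 with EV (SE 0.24, adjusted p = 0.0221) and -1.22 without EV (adjusted p = 0.00223). The call with EV was lost on leaving out with EV replicate 2 or 5 or non-cultured replicate 3 or 5, with adjusted p between 0.0560 and 0.0599.

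H2bc3 (Hist1h2bb) gave 6.54, 6.26, 6.28, 6.45 and 6.47 with EV, 6.67, 5.55, 6.45, 5.47 and 6.04 without EV, and 6.66, 7.20, 6.61, 6.86 and 6.42 in non-cultured cells. Both cultured groups overlapped the non-cultured one. It was called without EV (log2 -0.71, SE 0.21, adjusted p = 0.0304) but not with EV (log2 -0.35, adjusted p = 0.319). The difference between the cultured groups did not pass (log2 0.36, adjusted p = 0.771), and 5 of 15 fits that left out 1 array lost the call without EV, with adjusted p between 0.0563 and 0.0836.

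H4c12 (Hist1h4k) was the H4 gene that fell. It gave 10.17, 9.75, 9.53, 9.94 and 9.67 with EV, 9.81, 9.49, 9.66, 9.45 and 9.48 without EV, and 10.17, 10.38, 10.55, 10.17 and 10.43 in non-cultured cells. The arrays without EV lay below all non-cultured ones, and replicate 1 with EV overlapped them. Its differences were log2 -0.53 with EV (SE 0.12, adjusted p = 0.00797) and -0.76 without EV (adjusted p = 0.000451). H4 genes encode the same protein from near-identical coding sequences, and whether probes assigned to a single gene also bound transcripts of its relatives was not tested.

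Over the 29 genes, 7 had arrays without EV wholly below the non-cultured ones, where 6.1% of all genes had, and 6 had arrays with EV wholly below them, where 6.18% had. None of the 29 was wholly above in either comparison, against 5.89% and 5.06% of all genes.

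**Figure D2:**
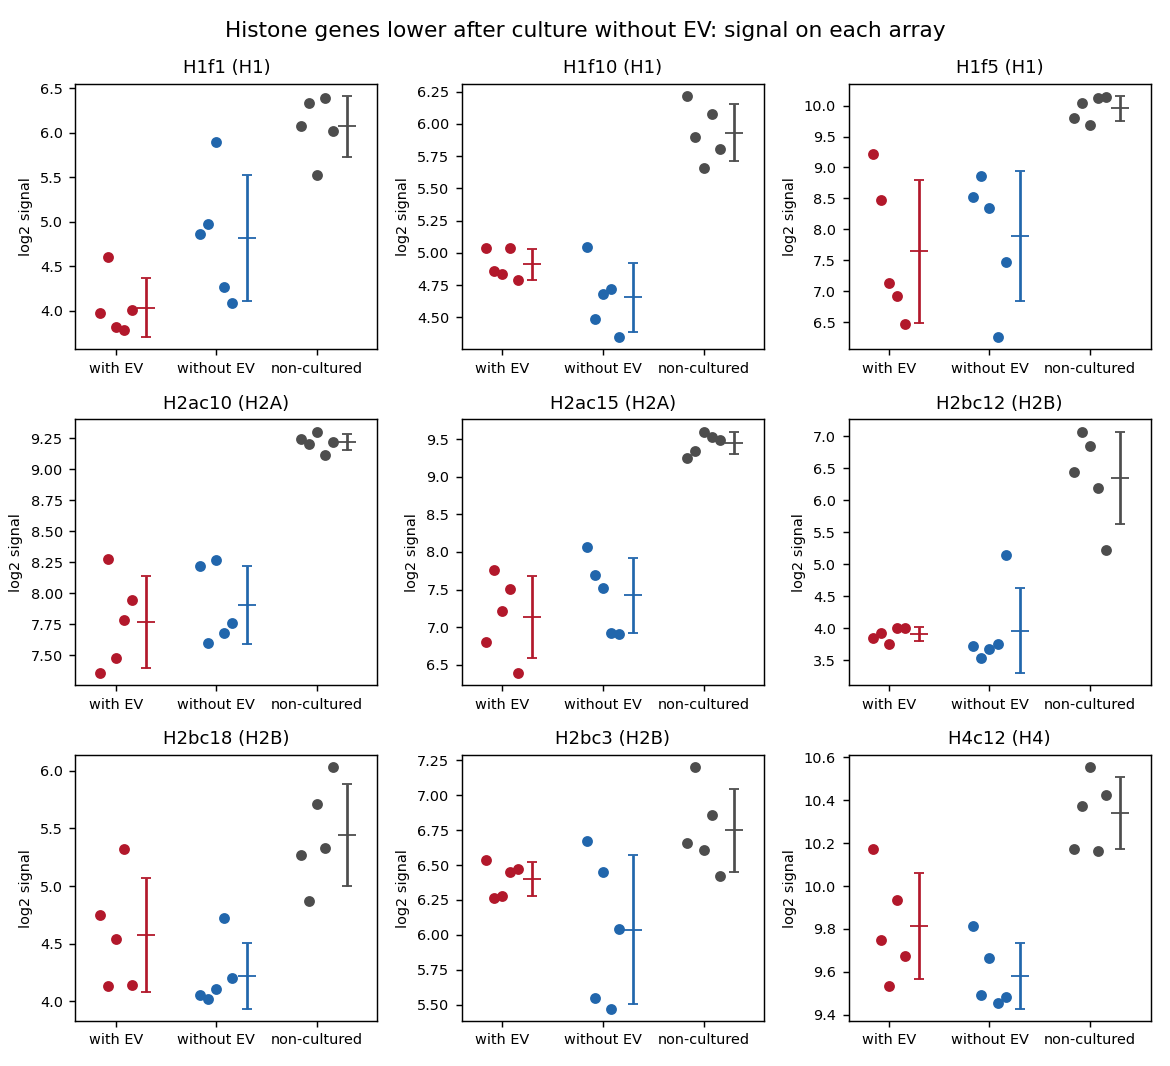
Log2 signal on each of the 15 arrays for the 9 histone genes called lower without EV against non-cultured cells, with the mean and SD of the 5 arrays beside each group and a scale of its own for each gene. Arrays with EV and without EV lie below the non-cultured arrays without overlap for H1f10, H1f5, H2ac10, H2ac15 and H2bc12.

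Vesicles did not shift the histone genes by an amount that passed the test. Against culture without EV, 0 of the 29 rose and 0 fell, where 0.18% of all genes were called higher and 0.018% lower. An unadjusted limma p under 0.05 was found for 4 of 29 histone genes and for 1513 of 22180 genes. The median difference of the 29 was log2 -0.041, with 15 below 0. None of the 29 had arrays with EV wholly above or wholly below those without EV, against 0.762% and 0.437% of all genes. For the 9 genes that fell without EV, the 95% intervals of the EV difference varied in width, from -0.02 to 0.53 for H1f10 and -0.03 to 0.49 for H4c12 up to -1.32 to 0.83 for H1f5. Only that of H1f1, -1.37 to -0.19, left out 0. These intervals are not adjusted for the number of genes.

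The smallest unadjusted p between the cultured groups belonged to H2bc21, H1f1 and H1f8. H2bc21 (Hist2h2be), an H2B gene known to make polyadenylated mRNA, gave 4.92, 5.43, 5.21, 5.10 and 4.97 with EV, 5.70, 5.29, 6.08, 5.14 and 6.25 without EV, and 5.08, 5.06, 4.87, 5.49 and 5.55 in non-cultured cells. The groups overlapped, with 3 of 25 pairs of arrays higher with EV than without EV. The difference was log2 -0.56 (SE 0.20, unadjusted p = 0.0128, adjusted p = 0.581).

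H1f1, whose arrays are given above, differed by log2 -0.78 between culture with EV and culture without EV (SE 0.28, adjusted p = 0.581). H1f8, the oocyte linker histone, gave 4.23, 4.15, 4.66, 4.53 and 4.24 with EV, 4.24, 3.66, 3.99, 4.15 and 3.98 without EV, and 4.52, 4.15, 4.03, 3.84 and 4.13 in non-cultured cells. These overlapping and dim values differed by log2 0.36 with EV against without EV (SE 0.14, adjusted p = 0.638). H4c9 (Hist1h4i), described after its values were seen, showed the widest EV difference of the 29, log2 1.51 (SE 0.70, adjusted p = 0.726). Its arrays gave 6.73, 7.76, 5.35, 7.70 and 4.6 with EV, 4.62, 4.75, 6.46, 3.81 and 4.96 without EV, and 7.81, 7.99, 6.36, 4.77 and 5.78 in non-cultured cells, so each group spanned more than that difference.

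**Figure D3:**
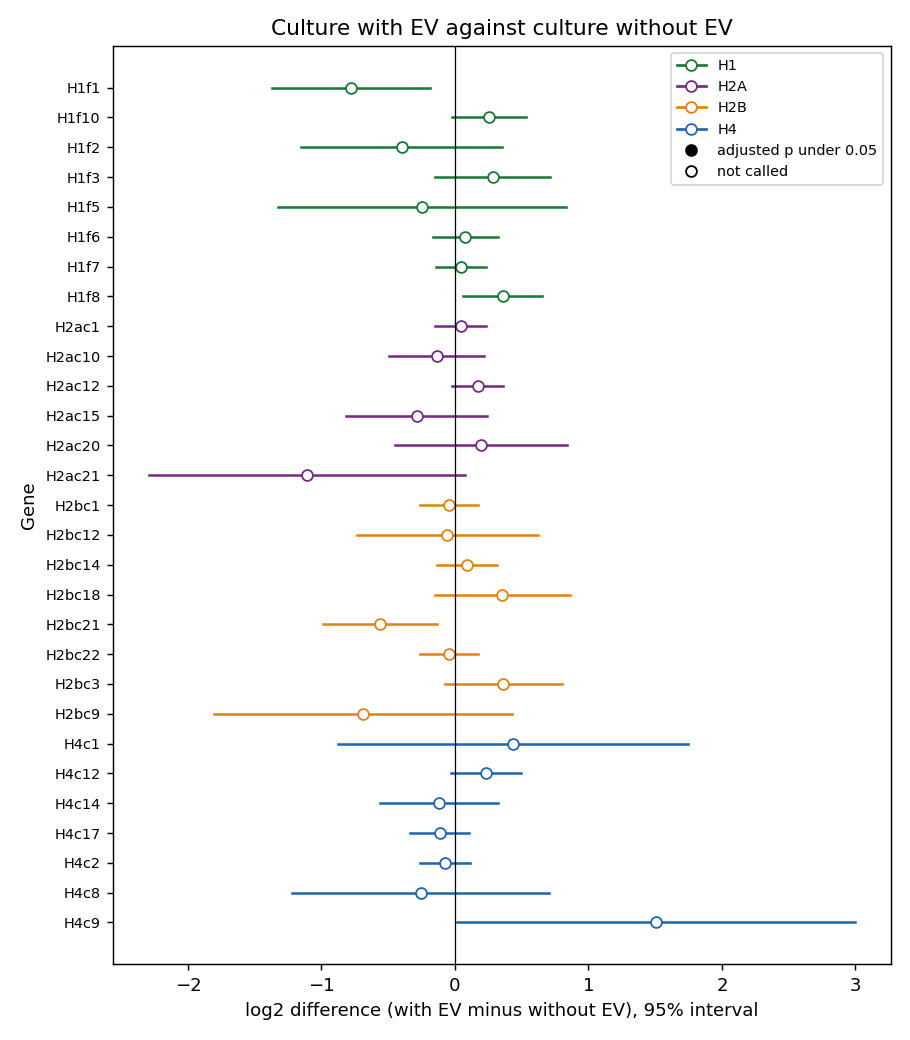
Log2 difference of each of the 29 histone genes in culture with EV minus culture without EV, coloured by histone class, with its 95% interval (limma, 5 arrays a group). No point is filled, since none passed an adjusted p under 0.05, and the widest interval, that of H4c9, reaches 3.00.

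A list of histone genes known to make polyadenylated mRNA in differentiated cells was read in the same fit. Of 8 listed, 4 were measured, the members H1f2 and H2bc21 and the genes H2aw and H4f16, whose newer names the naming rule does not take. Against non-cultured cells 0 of these were called with EV (median log2 -0.26, all 4 below 0, and 1 with an unadjusted limma p under 0.05), and without EV 1 fell and 0 rose (median 0.081). Among all genes 7.85% fell and 6.28% rose with EV, and 6.88% fell and 6.75% rose without EV. H1f2 (Hist1h1c), a somatic linker histone, gave 7.38, 8.34, 7.88, 6.92 and 6.59 with EV, 7.93, 8.47, 8.61, 7.33 and 6.75 without EV, and 8.45, 8.45, 7.87, 8.07 and 7.84 in non-cultured cells. The groups overlapped, and the differences from non-cultured cells were log2 -0.71 with EV (SE 0.35, adjusted p = 0.22) and -0.32 without EV (adjusted p = 0.693). H2bc21 differed by log2 0.48 without EV against non-cultured cells (adjusted p = 0.145) and by -0.085 with EV.

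H4f16 (Hist4h4) was called lower without EV (log2 -0.72, SE 0.19, adjusted p = 0.0177) but not with EV (log2 -0.42, adjusted p = 0.177). Its arrays gave 4.98, 4.72, 4.97, 4.69 and 4.06 with EV, 4.67, 4.47, 4.13, 4.39 and 4.24 without EV, and 4.98, 4.55, 5.12, 5.53 and 5.33 in non-cultured cells, with overlap in each comparison. H2aw (Hist3h2a) gave 5.32, 7.28, 7.56, 6.59 and 6.50 with EV, 7.66, 7.58, 7.37, 6.82 and 7.06 without EV, and 6.95, 6.49, 5.96, 6.78 and 7.62 in non-cultured cells. Its difference without EV was log2 0.53 (adjusted p = 0.438), and its groups overlapped. Of the 3 testis histone genes of the clusters (H1f6, H2ac1 and H2bc1), 0 were called, and their differences from non-cultured cells lay between -0.11 and 0.029.

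The remaining histone genes share probe sets. The annotation held 37 probe sets with several histone symbols, 34 of them with values of their own, which name 53 histone genes, 39 of them not members. Many of the 34 name the same genes as another, and some also name members. The counts below are therefore of probe sets, not of separate genes. In a fit over all 41345 probe sets, 14 of the 34 fell without EV against non-cultured cells, where 4.68% of all probe sets fell, and 0 rose, where 4.01% rose. With EV 11 fell and 0 rose, against 5.59% and 3.81%. Between culture with EV and without EV 0 of 34 were called in either direction, against 0.131% higher and 0.00242% lower, and 2 had an unadjusted p under 0.05.

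H2A and H2B probe sets made up most of these falls. Without EV they were 6 of 9 H2A, 4 of 7 H2B, 2 of 12 H3 and 2 of 5 H4 probe sets, and with EV 5 H2A, 4 H2B, 1 H3 and 1 H4. The brightest H2B probe set, shared by H2bc13, H2bc15, H2bc11 and H2bc7, gave 10.60, 11.00, 10.57, 10.78 and 11.07 with EV, 10.94, 10.60, 10.90, 10.56 and 10.74 without EV, and 11.64, 11.65, 11.73, 11.78 and 11.83 in non-cultured cells. The cultured arrays lay wholly below the others, by log2 -0.92 with EV (adjusted p = 0.000105) and -0.98 without EV (adjusted p = 6.13e-05).

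H3 genes, which encode the most heavily modified core histone, were read only here. Their brightest probe set, shared by H3c15 and 7 further H3 genes, gave 7.72, 7.32, 7.59, 7.44 and 7.13 with EV, 7.11, 6.70, 7.23, 6.82 and 7.07 without EV, and 7.66, 7.71, 7.96, 8.12 and 7.90 in non-cultured cells. Arrays without EV lay wholly below the non-cultured ones, and those with EV overlapped them. The differences were log2 -0.43 with EV (SE 0.13, adjusted p = 0.0616) and -0.88 without EV (adjusted p = 0.000693). Between the cultured groups the difference was 0.45 (adjusted p = 0.605).

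The H4 probe set with the brightest signal, shared by H4c17, H4c8, H4c9, H4c18, H4c1 and H4c2, changed by log2 -0.99 with EV (adjusted p = 0.00903) and -1.40 without EV (adjusted p = 0.000752). The brightest H2A probe set, shared by H2ac18, H2ac19 and H2ac20, was called without EV (log2 -0.81, adjusted p = 0.0383). It was not called with EV (log2 -0.66, adjusted p = 0.0893), and both cultured groups overlapped the non-cultured one. The largest fall among shared probe sets, noted after its values were seen, was in a dimmer H2A probe set led by H2ac4. It gave 2.83, 5.83, 3.29, 5.39 and 3.17 with EV, 3.84, 3.49, 4.55, 2.44 and 2.72 without EV, and 7.71, 7.93, 7.92, 6.69 and 6.54 in non-cultured cells. No cultured array reached the non-cultured ones, and the log2 difference was -3.26 with EV (SE 0.60, adjusted p = 0.00289) and -3.95 without EV (adjusted p = 0.000665).

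**Figure D4:**
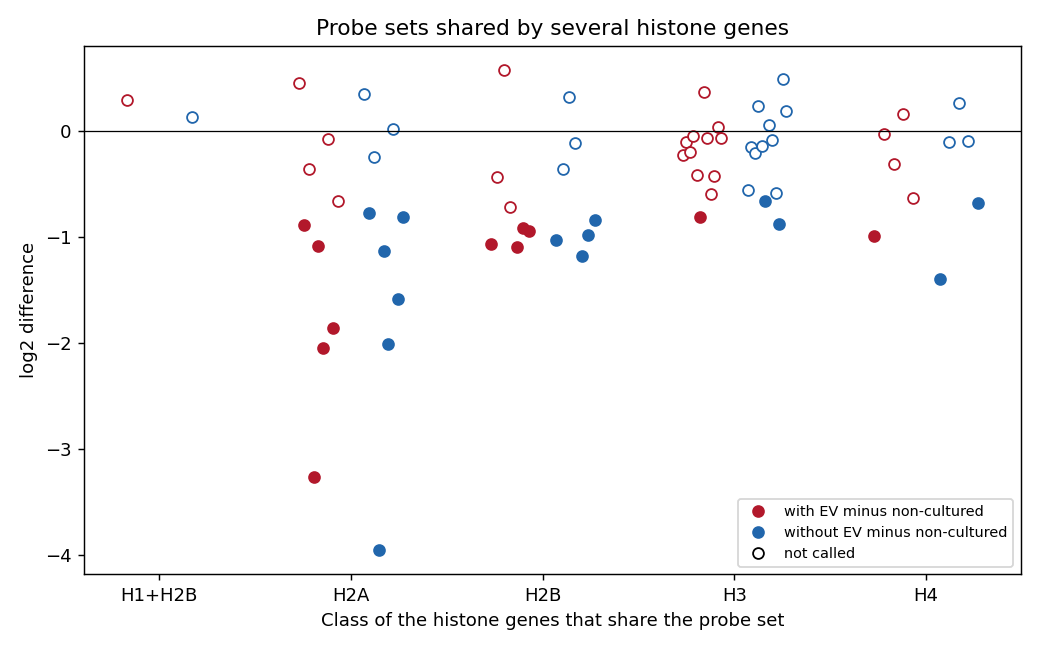
Log2 difference from non-cultured cells for 34 probe sets shared by several histone genes, by histone class, in culture with EV (red) and without EV (blue). Filled points passed an adjusted p under 0.05 over all 41345 probe sets. No filled point lies above 0, and the lowest, an H2A probe set, lies at -3.26 with EV and -3.95 without EV.

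Some genes that drive histone transcription and process histone mRNA fell as well. Of 25 listed, 23 were measured. With EV against non-cultured cells 7 fell (30.4%) and 0 rose, where 7.85% of all genes fell and 6.28% rose. Without EV 5 fell (21.7%) and 0 rose, where 6.88% of all genes fell and 6.75% rose. Npat, the coactivator of histone genes, gave 6.54, 6.77, 6.78, 6.11 and 6.58 with EV, 7.12, 7.13, 7.21, 6.66 and 6.71 without EV, and 7.92, 8.33, 7.95, 7.5 and 7.26 in non-cultured cells. Both cultured groups lay below the non-cultured one without overlap, by log2 -1.23 with EV (SE 0.19, adjusted p = 0.000287) and -0.83 without EV (adjusted p = 0.00698). The difference between the cultured groups was -0.41 (adjusted p = 0.726).

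Slbp, whose product binds the stem-loop, gave 6.95, 6.88, 7.36, 6.81 and 7.57 with EV, 7.27, 7.44, 7.03, 6.74 and 7.02 without EV, and 7.51, 7.66, 7.4, 7.87 and 7.86 in non-cultured cells, with overlap in each comparison. It changed by log2 -0.55 with EV (SE 0.16, adjusted p = 0.0333) and -0.56 without EV (adjusted p = 0.0305). Srrt, which links the cap-binding complex to RNA end formation, changed by -0.46 with EV and -0.53 without EV. Eri1, an exonuclease that trims the histone stem-loop, changed by -0.76 with EV and -0.51 without EV. The list's median was -0.14 with EV and -0.092 without EV.

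Histone chaperones hand new histones to DNA. Of 23 measured among 25 listed, 13 fell and 1 rose with EV, and 9 fell and 1 rose without EV (56.5% lower with EV and 39.1% without EV, against 7.85% and 6.88% of all genes), with medians of log2 -0.56 and -0.45. Higher calls made up 6.28% of all genes with EV and 6.75% without EV. Nasp, a chaperone of H3, H4 and H1, gave 6.0, 6.52, 6.51, 6.75 and 6.98 with EV, 7.0, 6.19, 6.83, 6.60 and 6.58 without EV, and 7.89, 7.93, 7.76, 8.07 and 8.01 in non-cultured cells. Cultured and non-cultured arrays did not overlap, and the differences were -1.38 with EV (SE 0.17, adjusted p = 3.03e-05) and -1.29 without EV (adjusted p = 5.79e-05). Rbbp7, a subunit of histone-binding complexes, changed by -0.96 with EV and -0.83 without EV. Dnajc9, a co-chaperone of H3 and H4, changed by -1.16 with EV and -0.82 without EV. Nap1l1, a chaperone of H2A and H2B, changed by -0.67 with EV and -0.54 without EV. The 1 that rose, named after its value was seen, was Nap1l4, related to Nap1l1 (0.67 with EV and 0.81 without EV).

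Histone variants listed as made outside S phase were measured for 8 of 11 genes, with 4 lower and 0 higher in each cultured group. Over all genes 7.85% were lower and 6.28% higher with EV, and 6.88% lower and 6.75% higher without EV. Whether each listed gene is active only outside S phase was not tested. H2ax, the H2A variant that is phosphorylated at DNA breaks, gave 8.53, 8.75, 8.89, 8.21 and 7.38 with EV, 8.65, 8.87, 8.97, 7.94 and 8.07 without EV, and 10.54, 10.59, 10.55, 10.47 and 10.66 in non-cultured cells. Its cultured arrays were all below its non-cultured ones, and it fell 4.62-fold with EV (log2 -2.21, SE 0.25, adjusted p = 1.58e-05) and 4.17-fold without EV (adjusted p = 3.11e-05). This was the largest fall of the list, whose medians were log2 -0.43 with EV and -0.37 without EV. Cenpa, the H3 variant of centromeres, changed by log2 -0.99 with EV and -0.86 without EV. Macroh2a1, which encodes an H2A with a large extra domain, changed by -0.32 with EV and -0.34 without EV. H1f10, on the probe set that names it alone, was the remaining variant that fell.

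DNA replication enzymes were lower after culture. Of 30 listed, 28 were measured, and 27 fell and 0 rose in each cultured group, with medians of log2 -1.43 with EV and -1.39 without EV. The shares of all genes were 7.85% lower and 6.28% higher with EV, and 6.88% lower and 6.75% higher without EV. Among them were Pole, the catalytic subunit of a replicative polymerase (-2.38 with EV and -2.54 without EV), and Dtl, which directs degradation of licensing factors in S phase (-2.60 with EV and -3.01 without EV). The helicase subunit Mcm2 (-1.54 with EV and -1.70 without EV) and the sliding clamp Pcna (-1.39 with EV and -1.33 without EV) fell as well. The 1 not called was Fen1, a flap endonuclease, named after its value was seen (-0.36 with EV and -0.095 without EV). Between culture with EV and culture without EV 0 genes were called in any of these lists, by limma, against 0.18% of all genes higher and 0.018% lower. An unadjusted p under 0.05 was found for 3 of the transcription and processing genes, 2 chaperones, 0 variants and 2 replication enzymes. Over all genes it was found for 1513 of 22180.

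**Figure D5:**
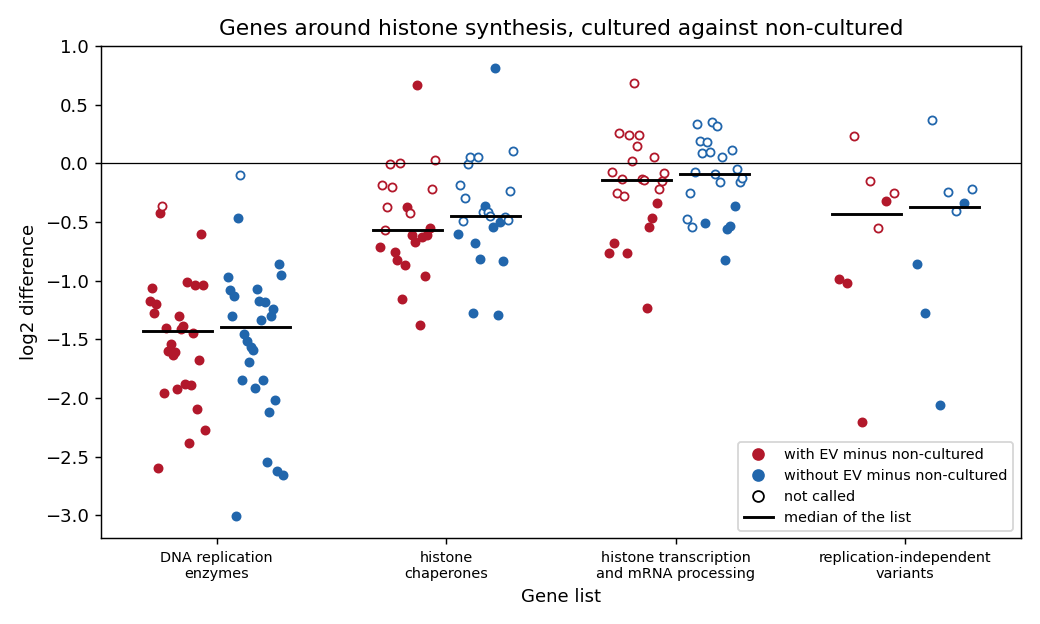
Log2 difference from non-cultured cells for the measured genes of 4 lists, in culture with EV (red) and without EV (blue), with a bar at each list's median. Filled points passed an adjusted p under 0.05. The medians of the DNA replication enzymes are -1.43 with EV and -1.39 without EV, and those of histone transcription and mRNA processing are -0.14 with EV and -0.092 without EV.

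Some markers of mature myeloid cells and of other lists moved with culture beside the histone genes. Of 5 stem and early progenitor markers, 2 were called higher without EV and 1 with EV. Kit was called higher without EV (log2 0.39) but not with EV (0.26). With EV, 1 of 5 stromal markers was called higher. Of all genes 6.75% were higher without EV and 6.28% with EV. The 3 macrophage markers summed to 18.15 to 19.12 on the log2 scale with EV and 17.76 to 19.29 without EV, against 14.78 to 15.81 in non-cultured cells. The 4 granulocyte markers summed to 30.79 to 32.97 with EV and 31.90 to 32.70 without EV, against 26.87 to 31.95. Csf1r, a macrophage growth factor receptor, rose by log2 2.38 with EV and 2.24 without EV. Of the 4 granulocyte markers 1 rose and 1 fell in each comparison. S100a8, a calcium-binding protein of granulocytes, rose by 2.67 with EV and 2.75 without EV, whereas the myeloperoxidase gene Mpo differed by -0.58 with EV and -0.66 without EV. The part of these changes in the histone results was not tested.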

How the data were processed

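RNA of 15 samples was hybridised to Affymetrix Mouse Gene 2.0 arrays, with targets made from 500 pg of total RNA by the picoWT protocol, per the labels' protocols. The deposited table holds 1 value per probe set and array, on a log2 scale judged by its range. The sources used here give neither the log base, background correction and normalization nor how far RNA without a poly(A) tail was labelled. The submitters' processing notes name MAS5, without a version. Values were used as deposited and compared within a probe set.

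Of 41345 probe sets, 25335 are in the platform annotation and 23521 have 1 gene symbol. Taking the brightest per gene left 22180 genes. Group means were estimated from all 15 arrays by limma 3.58.1 (lmFit, eBayes, 12 residual degrees of freedom; R 4.3.3), with Benjamini-Hochberg adjustment over all genes. Shared probe sets were tested in a second fit over all probe sets. Folds are 2 to the power of the log2 difference.

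The members and lists were chosen with earlier results of these data known. Array values are given for the 10 members with the smallest p without EV against non-cultured, the 3 with the smallest p for EV, and listed polyadenylated genes. Up to 4 genes of each other list are named by the smallest p without EV, and Slbp and Npat always. Alternatives were quantile normalization, median centring, a filter on dim genes, the mean of a gene's probe sets, a fit on all probe sets, a replicate block, eBayes with trend and robust options, each comparison's arrays alone, arrays left out and, chosen after seeing the data, the members without H1f7, H1f8 and H1f10. The labels name no batch, date or animal, so p-values measure the spread between these samples, which may be technical. Promoters were searched with Python 3.11.15. The fits were tested on simulated data.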

Additional observations from a re-analysis of the deposited data

Results flagged for a closer look

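In 10 of 87 groups of 5 arrays (29 genes in 3 groups), 1 array stood far from the other 4 by Dixon's test at its 95% critical value of 0.71. Chance alone gives about 1 in 20 groups, or 4.35 of 87.

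With EV, replicate 5 was high for H2ac21 (log2 8.04, others 5.00 to 5.77) and for H4c1 (6.48, others 2.46 to 2.65). With EV, replicate 2 was high for H1f1 (4.6, others 3.79 to 4.01), and replicate 3 was low for H2bc1 (2.06, others 2.12) and for H4c17 (2.17, others 2.41 to 2.50).

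Without EV, replicate 5 was high for H2bc12 (5.14, others 3.54 to 3.75), replicate 4 for H2bc18 (4.72, others 4.02 to 4.20), replicate 3 for H2bc9 (5.77, others 3.04 to 3.73) and replicate 1 for H4c8 (5.52, others 2.6 to 3.31). In non-cultured cells replicate 5 was low for H1f7 (3.52, others 3.84 to 3.87). H2bc12 kept its call in culture without EV when this array was left out, since all 15 fits without 1 array called it.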

How the results depend on the processing

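In each comparison 0 histone genes rose under every alternative run, and 0 fell with EV against without EV. With 1 array left out, 7 to 10 fell with EV and 8 to 9 without EV, both against non-cultured cells. Medians moved more. With EV against without EV the median (-0.041) was -0.088 under median centring and ranged from -0.045 to 0.0196 without 1 array. With EV against non-cultured cells the median (-0.14) was -0.79 over the 16 histone genes left without the dimmest 40% of genes. It was -0.21 under median centring, and ranged from -0.26 to -0.12 without 1 array. Without EV against non-cultured cells the median (-0.13) was -1.0007 over those 16 and ranged from -0.34 to -0.10 without 1 array. The filter drew on the non-cultured arrays too, so the medians after it may be partly set by that choice. Neither scaling moved the median of all genes by 0.1.

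Reversals touched uncalled differences only, and the cause was not tested. Over fits without 1 array, the EV difference ranged from -0.65 to 0.051 for H1f5 (highest without with EV replicate 5), from -0.12 to 0.33 for H2ac20 (lowest without without EV replicate 4) and from -0.16 to 0.24 for H2bc12 (highest without without EV replicate 5). H2ac20 with EV against non-cultured cells ranged from -0.30 to 0.0123 (highest without non-cultured replicate 1), and H2bc21 there was 0.12 without non-cultured replicates 4 and 5. The call of H2ac21 with EV was lost in 7 of 15 fits without 1 array. Replicate numbers are shared across groups, and these values do not settle whether they pair the samples. Between the cultured groups, correlations of same-numbered deviations ranged from 0.023 to 0.19, and the median of other pairs was -0.020. Against non-cultured cells they ranged from -0.12 to 0.059 with EV and from -0.087 to 0.034 without EV. The closest sample bore the same number for 1 of 5 for EV, 2 of 5 with EV against non-cultured cells and 0 of 5 without EV. With the replicate number as a block 8 genes fell in each culture comparison, H2ac21 losing its call with EV (adjusted p = 0.0535) and H2bc3 without EV (adjusted p = 0.0546), and 0 were called for EV. Over all genes the block gave 39 calls for EV against 44 without it. What dim members show is limited by the missing measure of background.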

Other observations

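H2bc12 and H2ac12 are divergent neighbours on chromosome 13, and their 150-base windows overlap (GRCm38.p6, chr13:22035671-22035820 on the plus strand for H2bc12 and chr13:22035644-22035793 on the minus strand for H2ac12). H2bc12 changed by log2 -2.44 with EV and -2.39 without EV, while H2ac12 on its own probe set differed by 0.075 with EV (adjusted p = 0.663) and -0.10 without EV (adjusted p = 0.613). H2ac12 gave 2.08 to 2.42 with EV, 1.89 to 2.20 without EV and 2.05 to 2.22 in non-cultured cells, which is dim. A probe set that H2ac12 shares with H2ac22 and 8 further H2A genes changed by log2 -1.09 with EV and -1.14 without EV. Other probe sets naming these same genes went different ways. The one led by H2ac4 was lowest (-3.26 with EV and -3.95 without EV). One led by H2ac23 was highest and not called (0.45 with EV and 0.35 without EV).

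The dimmer probe set of H2ac21 differed by log2 -0.70 with EV against without EV (SE 0.23, unadjusted p = 0.00918, adjusted p = 0.643 over all probe sets), beside -1.11 on the brighter one. H4f16 also has 2 probe sets. Without EV against non-cultured cells the brighter differed by -0.72 and the dimmer by 0.18 (adjusted p = 0.615).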
